A study of Homo sapiens with 2 samples.

Results

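Alpha and beta tubulin genes were followed in CL1-5, a highly invasive human lung adenocarcinoma cell line, on 1 array of cells exposed for 24 h to 0.11 µM analogue 3 and 1 array of cells given the solvent DMSO for 24 h. Analogue 3 derives from the plant product desmosdumotin C and carries iodo, tripropyl and methoxy groups, and its dose equalled the median effective dose that the submitters give for killing of these cells. Total RNA was hybridised to Affymetrix Human Genome U133 Plus 2.0 arrays, to find transcripts that differ under the compound. The members were all probe sets to which the platform annotation gives exactly 1 gene symbol, that symbol being one of 10 listed isotype genes. There were 20 such probe sets, 10 for 4 alpha genes and 10 for 6 beta genes, among 41097 single-gene probe sets that stand for 19775 genes, and 54675 probe sets in all. Each group had 1 array, so the differences carry no replicate error and no p-value.

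Alpha and beta tubulin form the heterodimer that polymerises into microtubules, the fibres of the mitotic spindle and of intracellular transport. Human cells encode several isotypes of each chain that differ mainly near the C terminus, and proliferating cells use a few widely expressed isotypes while others are typical of neurons. Tubulin messenger RNA is also known to be autoregulated, since unpolymerised tubulin leads to decay of tubulin mRNA while it is being translated.

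Tubulin isotype transcripts were mostly higher with analogue 3, and among the probe sets bright enough to compare the largest differences were in beta isotypes. TUBB, TUBB3 and TUBB4B were 1.81- to 2.04-fold higher in each of their 7 probe sets. TUBA1B and TUBA1C were 1.45- to 1.69-fold higher in 7 probe sets, and TUBB2A was 1.5-fold higher. TUBB6 and TUBA1A were 1.32- and 1.19-fold higher, and TUBB2B was the only member measured that was lower, at 0.87 times its DMSO level. These are descriptions of 2 arrays with no test.

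Intensities are multiples of the array median, as deposited. Values under a floor of log2 5, or 32 times the array median, were raised to it before a difference was taken, and a probe set was called measured if it reached that floor on either array. Of the 20 member probe sets 18 were measured, all of them above the floor on both arrays, and 2 were under it on both. Many of the probe sets cannot separate close paralogs: 14 end in _x_at and 1 in _s_at, suffixes that mark probes shared with other transcripts, and 5 end in _at. Probe sets differ in brightness for the same amount of RNA, so no isotype's level is set against another's. RNA amounts are relative within each culture, so fewer cells with a transcript and less of it per cell cannot be told apart.

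**Figure D1:**
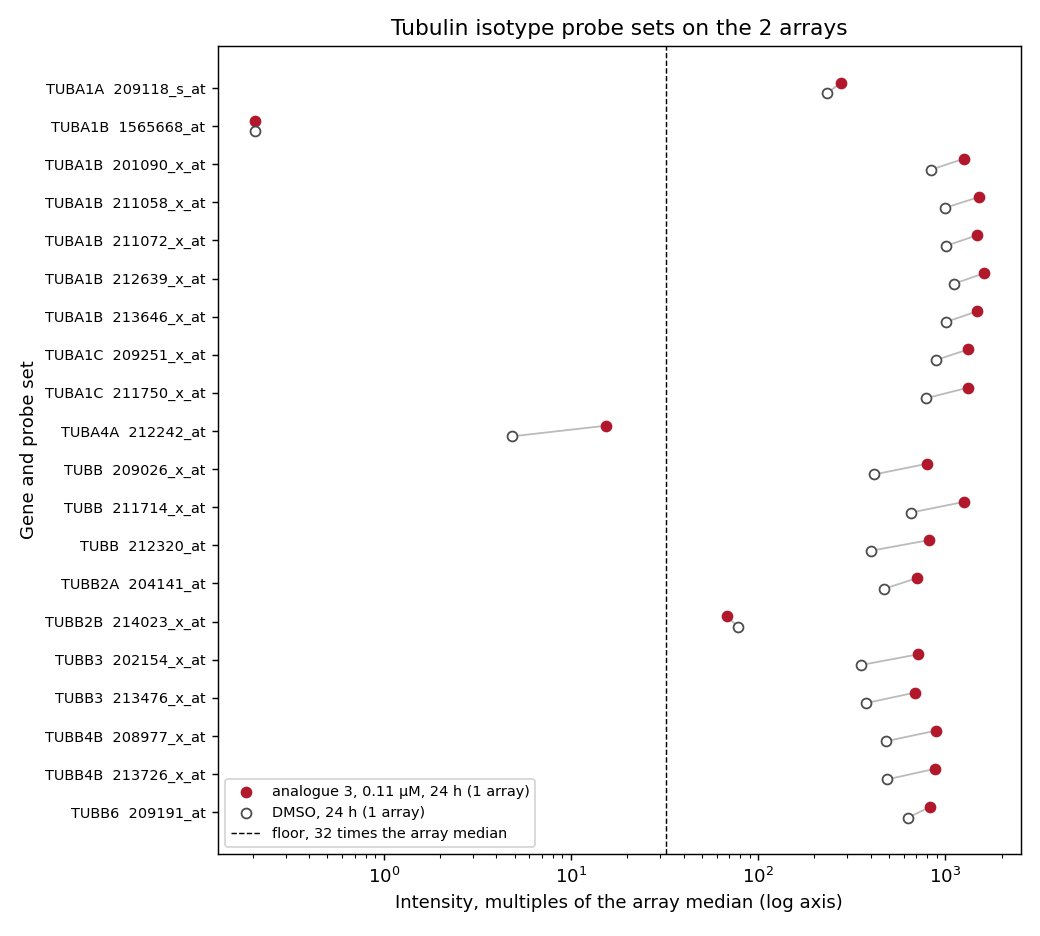
Intensity of each of the 20 tubulin isotype probe sets, as multiples of the array median on a log axis, with analogue 3 (filled) drawn above DMSO (open) in each row and the floor of 32 dashed. The filled point lies to the right of the open one in every row above the floor except TUBB2B, and TUBA4A and 1 probe set of TUBA1B lie left of the floor.

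Among the beta isotypes, TUBB, the class I isotype made in most dividing cells, had an intensity of 820.9 with analogue 3, against 401.7 with DMSO, in its 212320_at probe set. That is a 2.04-fold difference in a probe set without a cross-hybridisation suffix. Its 211714_x_at probe set gave 1255 with analogue 3 and 654 with DMSO, or 1.92-fold, and its 209026_x_at probe set 795.5 and 415.9, or 1.91-fold. The 3 log2 differences, 1.03, 0.94 and 0.94, spanned 0.10, so TUBB gave much the same difference with and without the _x_at probes.

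TUBB3, the class III isotype typical of neurons and also found in many carcinomas, gave 714.5 with analogue 3 and 353.3 with DMSO in 202154_x_at, a log2 difference of 1.02. In 213476_x_at it gave 692.1 with analogue 3 and 375.7 with DMSO, a log2 difference of 0.88. Both of its probe sets end in _x_at, so the part of other beta isotypes in these values is not known. Most neuronal markers were low on both arrays: MAP2, RBFOX3, SYP, DCX and GAP43 were all under 2 times the array median. SNAP25 read 11.44 with analogue 3 and 7.49 with DMSO, and NEFM 2.93 with analogue 3 and 2.35 with DMSO, also under the floor. Of the 9 neuronal markers fixed, 2 were measured: NEFL, a neurofilament gene, at 76.0 with analogue 3 and 66.3 with DMSO, and ENO2, a neuronal enolase gene, at 29.4 with analogue 3 and 45.02 with DMSO. The summed intensity of the 9 was 123.3 with analogue 3 and 124.7 with DMSO.

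TUBB4B, a widely expressed class IV isotype, was at 890.6 with analogue 3 and 480.2 with DMSO in 208977_x_at. It was at 883.2 with analogue 3 and 488.7 with DMSO in 213726_x_at. The folds of 1.85 and 1.81 differ by 0.04 on the log2 scale, and both again come from _x_at probe sets.

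TUBB2A and TUBB2B are near-identical class II isotypes that neighbour each other on chromosome 6. TUBB2A was at 704.9 with analogue 3 and 469.6 with DMSO in 204141_at, a log2 difference of 0.59. TUBB2B was at 67.9 with analogue 3 and 78.4 with DMSO in 214023_x_at, a log2 difference of -0.21. The paralogs thus lay on opposite sides of 0, by 0.79 in all, each on a single probe set. The TUBB2B difference lay between the quartiles of all measured probe sets, -0.27 and 0.27.

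TUBB6, the class V isotype, had the smallest difference of the beta genes that were higher. In 209191_at it read 832.5 with analogue 3 and 632.6 with DMSO, a log2 difference of 0.40. That lay below each of the 7 probe sets of TUBB, TUBB3 and TUBB4B.

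Among the alpha isotypes, TUBA1B, a ubiquitous isotype and a main one of dividing cells, was represented by 5 measured probe sets, all _x_at. The brightest, 212639_x_at, read 1610 with analogue 3 and 1107 with DMSO. The probe sets 211058_x_at, 211072_x_at and 213646_x_at read 1511, 1482 and 1476 with analogue 3, against 1002, 1011 and 1006 with DMSO. The fifth, 201090_x_at, read 1254 with analogue 3 and 839.1 with DMSO, so each of the 5 was higher with analogue 3. Their log2 differences ran from 0.54 to 0.59, with an SD of 0.02 over the 5 probe sets, which read the same RNA and are not replicates. The sixth TUBA1B probe set, 1565668_at, read 0.20 on both arrays, far below the floor, and gave no difference. It stands apart from the other 5, and which transcript it reads was not tested.

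TUBA1C, a further broadly expressed alpha isotype, was at 1330 with analogue 3 and 786.6 with DMSO in 211750_x_at, a log2 difference of 0.76. In 209251_x_at it was at 1323 with analogue 3 and 887.1 with DMSO, a log2 difference of 0.58. TUBA1A, the alpha isotype best known from neurons, was at 276.7 with analogue 3 and 233.4 with DMSO in 209118_s_at, a log2 difference of 0.25. The TUBA1A difference was thus the smallest of the alpha genes measured, and it rests on 1 probe set with a suffix.

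TUBA4A, an isotype whose encoded chain lacks the C-terminal tyrosine of other alpha tubulins, was under the floor on both arrays. Its probe set 212242_at read 15.4 with analogue 3 and 4.83 with DMSO, a ratio of 3.19 between values that the floor treats as too low to compare. With a floor of log2 3, or 8 times the array median, it was at least 1.93-fold higher.

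**Figure D2:**
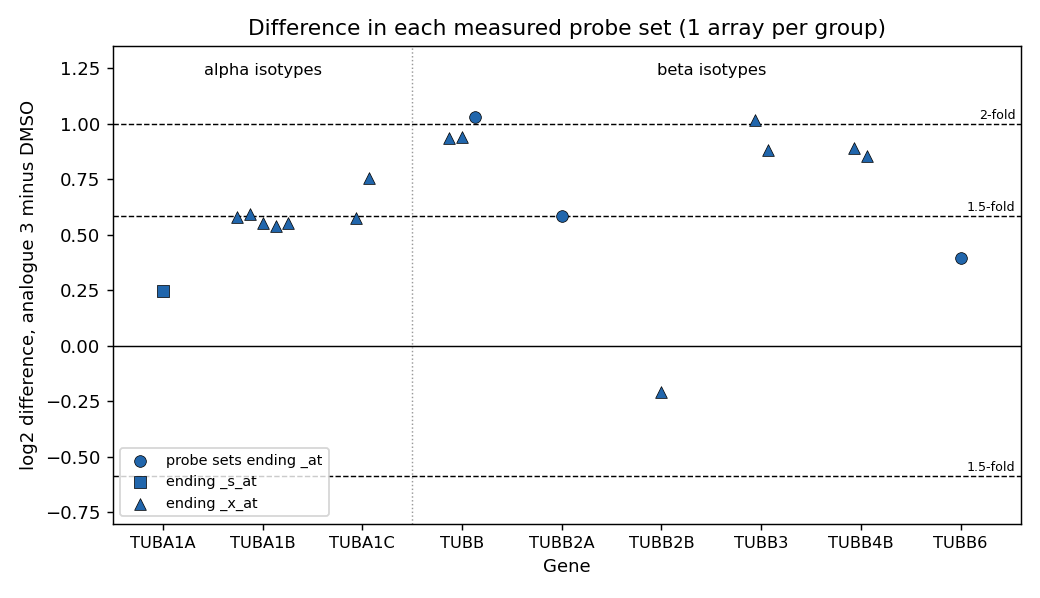
Log2 difference, analogue 3 minus DMSO, in each of the 18 measured probe sets by gene, with the marker shape giving the probe set suffix and dashed lines at 1.5-fold and 2-fold. Beta genes TUBB, TUBB3 and TUBB4B lie between 0.85 and 1.03, the TUBA1B and TUBA1C probe sets between 0.54 and 0.76, and TUBB2B at -0.21.

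Of the 18 measured probe sets, 17 lay above 0, against 49.7% of all 6974 measured single-gene probe sets. The 18 stand for 9 genes and often share sequence, so they are not independent. At least 2-fold higher were 2 of the 18 probe sets, 212320_at of TUBB and 202154_x_at of TUBB3, against 3.28% of all measured probe sets. Neither was 2-fold higher after loess removal or quantile normalization. With each gene read from its brightest probe set, 0 of the 9 genes were at least 2-fold higher, against 3.47% of 5050 measured genes. None of the 18 probe sets was 2-fold lower, where 2.39% of all were. At a threshold of 1.5-fold the count was 10 of 18, against 9.72% of all, with 2 of 8 alpha and 8 of 10 beta probe sets. Several alpha probe sets lay just under that line, the TUBA1B folds running from 1.45 to 1.51. None was 1.5-fold lower, where 8.57% of all were.

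The median log2 difference over the 18 was 0.59, or 1.5-fold, with quartiles of 0.55 and 0.89, and over all measured probe sets it was -0.0015. It was 0.56 over the 8 alpha and 0.89 over the 10 beta probe sets. With 1 value per gene, taken from its brightest probe set, it was 0.54 over 3 alpha genes and 0.72 over 6 beta genes. Tubulin transcripts are abundant, so the members were also set beside the 1075 probe sets with a mean log2 level of at least 8. Their median was 0.06, with 622 of the 1075 above 0, 2.14% at least 2-fold higher and 8.56% at least 1.5-fold higher. The 16 members among them had a median of 0.68, above the 0.59 of all 18 because the tier leaves out TUBB2B and TUBA1A, whose differences were the lowest.

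**Figure D3:**
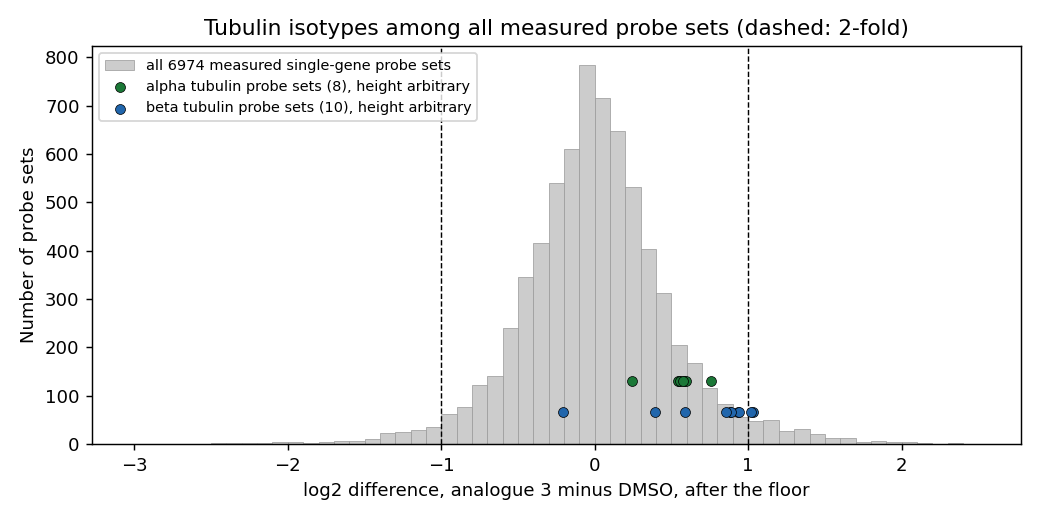
Histogram of the log2 difference, analogue 3 minus DMSO, over all 6974 measured single-gene probe sets, with the 8 alpha and 10 beta tubulin probe sets drawn as points at arbitrary height. All points but TUBB2B lie to the right of 0, and 2 beta points lie just past the dashed 2-fold line.

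The spread between probe sets of the same gene is the error that 2 arrays can show, and it leaves out culture, RNA and hybridisation error. Over 1127 genes that had 2 or more probe sets past the floor on each array, the SD of 1 probe set was 0.17 on the log2 scale, and the difference within a pair was under 0.38 for 90% of genes. The 9 measured isotype genes give 36 pairs, of which 15 differed by more than that bound in their brightest probe sets, and 8 of the 15 involve TUBB2B. That is 41.7% of the isotype pairs, against 53.6% of all pairs of measured genes, so nothing about the isotypes is read from the count. TUBB exceeded TUBA1B by 0.40 and TUBB6 by 0.54, just past the bound and clearly past it. The other contrasts of TUBA1B and TUBA1C with TUBB, TUBB3 and TUBB4B lay inside the bound. TUBA1B minus TUBB3 was -0.34 and TUBA1B minus TUBB4B -0.31. TUBA1C minus TUBB, TUBB3 and TUBB4B gave -0.36, -0.30 and -0.28, so most contrasts of TUBA1B and TUBA1C with these beta genes did not pass the bound. Those of TUBA1A did: TUBA1A minus TUBB, TUBB3 and TUBB4B gave -0.69, -0.64 and -0.61, with TUBA1A read from 1 probe set. TUBB3 and TUBB4B exceeded TUBB6 by 0.49 and 0.46, also past the bound. TUBB, TUBB3 and TUBB4B differed among themselves by at most 0.09, well inside it. All but 1 of their probe sets end in _x_at, and the part of shared probes in this closeness was not tested.

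The upstream sequences of 4 isotypes are shown, chosen with their values known: TUBB, TUBB4B and TUBA1B were higher and TUBB2B was not. TUBB3, TUBA1C, TUBB2A, TUBB6 and TUBA1A were also higher and are not shown. No link between sequence and difference was tested. Each sequence shown is the 250 bases before a RefSeq start on GRCh38.p14, 5′ to 3′ on the gene's strand. Capitals mark exact matches on either strand to the CCAAT box (CCAAT), the GC box (GGGCGG), the TATA box (TATAAA) or the core of the cell cycle genes homology region (TTTGAA). Neighbouring matches can overlap.
TUBB, chr6:30720102-30720351, plus strand: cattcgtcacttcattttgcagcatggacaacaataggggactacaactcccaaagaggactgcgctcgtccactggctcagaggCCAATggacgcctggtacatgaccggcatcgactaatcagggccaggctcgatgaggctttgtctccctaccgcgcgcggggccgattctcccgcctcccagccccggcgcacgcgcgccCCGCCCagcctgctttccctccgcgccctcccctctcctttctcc
TUBB4B, chr9:137241037-137241286, plus strand: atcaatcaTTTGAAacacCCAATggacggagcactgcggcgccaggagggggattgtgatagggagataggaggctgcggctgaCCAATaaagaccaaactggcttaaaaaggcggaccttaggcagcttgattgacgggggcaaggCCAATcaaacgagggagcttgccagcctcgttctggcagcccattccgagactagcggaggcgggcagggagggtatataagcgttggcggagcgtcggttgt
TUBA1B, chr12:49131396-49131645, minus strand: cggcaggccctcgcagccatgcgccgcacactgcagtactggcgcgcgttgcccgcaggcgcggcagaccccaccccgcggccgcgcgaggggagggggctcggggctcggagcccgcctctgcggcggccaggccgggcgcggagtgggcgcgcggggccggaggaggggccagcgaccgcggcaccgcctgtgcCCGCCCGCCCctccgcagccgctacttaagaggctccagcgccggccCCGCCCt
TUBB2B, chr6:3227654-3227903, minus strand: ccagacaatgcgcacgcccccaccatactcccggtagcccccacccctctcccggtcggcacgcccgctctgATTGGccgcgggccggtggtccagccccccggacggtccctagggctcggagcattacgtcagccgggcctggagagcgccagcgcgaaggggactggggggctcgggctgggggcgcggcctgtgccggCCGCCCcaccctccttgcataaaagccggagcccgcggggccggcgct
TUBB4B held 3 CCAAT matches and 1 match to TTTGAA, and TUBB held 1 CCAAT and 1 GC box match. TUBA1B held 3 GC box matches and no CCAAT, and TUBB2B held 1 of each. RefSeq gives 15 starts for the 10 genes, some of them with overlapping windows, and the start shown for TUBB is one of 2. The window before the other TUBB start held 5 GC box matches and no match to CCAAT. The CCAAT box lay in 9 of the 15 windows, against 32% of 35116 windows of the same length, and GGGCGG in 9, against 42.6%. The 9 windows with CCAAT include overlapping TUBA1C windows that hold the same match. TTTGAA lay in 3, against 13.3%, and TATAAA in 1, against 10.7%. A match describes letters in a window and is not a site.

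Genes around tubulin differed unevenly. Each was read from its brightest single-gene probe set, where 3.47% of 5050 measured genes were at least 2-fold higher and 2.67% at least 2-fold lower. Of the other tubulin genes, TUBG1, whose gamma tubulin nucleates microtubules at the centrosome, was 2.42-fold higher at 354.8 with analogue 3 and 146.9 with DMSO. TUBE1, the epsilon tubulin gene linked to centrioles, read 26.1 with analogue 3 and 66.9 with DMSO and was at least 2.09-fold lower. The other 6 of the 8 with a single-gene probe set, among them the blood-cell isotype gene TUBB1 and the brain isotype gene TUBB4A, were under the floor.

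The CCT chaperonin folds newly made alpha and beta tubulin. All 7 of its subunit genes measured were above 0, as were 48.4% of all measured genes. The 7 are bright, and of the 1075 probe sets with a mean log2 level of at least 8, 622 were above 0. The median log2 difference of the 7 genes was 0.40, or 0.31 after loess removal, and none was 2-fold higher. CCT6A was the largest at 412.8 with analogue 3 and 241.2 with DMSO, or 1.71-fold. Prefoldin hands tubulin to CCT, and 4 of its 5 measured genes were above 0, with a median of 0.23 and PFDN4 the largest at 0.27. The fifth, PFDN2, was at 373.4 with analogue 3 and 577.4 with DMSO, a log2 difference of -0.63. The tubulin folding cofactors, which join alpha to beta after CCT, had a median of -0.02 over 5 measured genes. TBCA, a beta tubulin cofactor, was at 867.9 with analogue 3 and 824.5 with DMSO, and TBCC, which acts at the release of the dimer, at 46.0 with analogue 3 and 53.7 with DMSO. The cofactor genes thus lay between -0.22 and 0.07 on the log2 scale.

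TTC5, which recognises the nascent end of tubulin and starts its mRNA decay, was under the floor at 21.2 with analogue 3 and 22.6 with DMSO. Of the 8 genes of autoregulation, the others being its partner SCAPER and CCR4-NOT deadenylase subunits, 4 were measured, with a median of 0.14. CNOT6, a catalytic deadenylase subunit, was the largest of them at 43.4 with analogue 3 and 33.6 with DMSO, or 1.29-fold, and CNOT8, a related subunit, was the only one below 0, at -0.06. Tubulin modifying enzymes were mostly too low to compare, with 4 of 20 genes measured. Among these SVBP, the partner of the enzymes that remove the C-terminal tyrosine, was at 69.5 with analogue 3 and 86.0 with DMSO. AGTPBP1, which trims glutamate chains, was at 63.8 with analogue 3 and 82.8 with DMSO, a log2 difference of -0.38, and none of the 4 was 2-fold different. TTLL12, of the tubulin tyrosine ligase-like family, was the only one above 0, at least 1.08-fold higher.

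Microtubule-associated proteins had a median of 0.11 over 11 measured genes of 22, with 3 at least 2-fold higher and none 2-fold lower. STMN1, whose stathmin binds free tubulin dimers, was 2.90-fold higher at 106.9 with analogue 3 and 36.8 with DMSO. TPX2, a spindle assembly factor, was 2.44-fold higher, and KIF2C, a microtubule-depolymerising kinesin, 2.17-fold higher. CLIP1, a plus-end tracking protein, was lower, at 29.3 with analogue 3 and 53.2 with DMSO, by at least 1.66-fold.

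**Figure D4:**
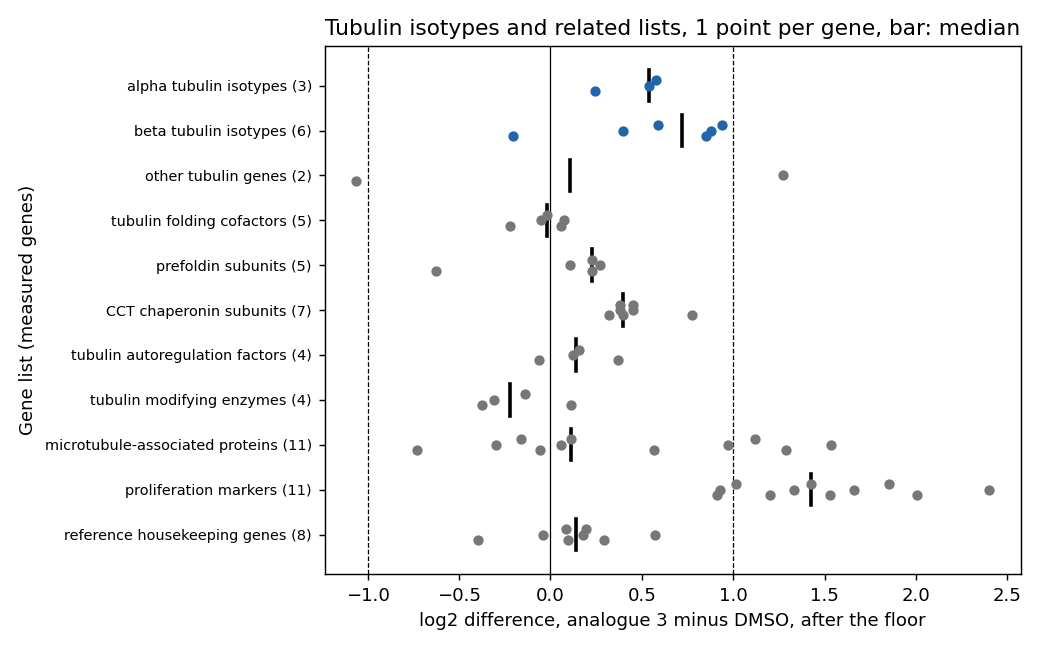
Log2 difference, analogue 3 minus DMSO, after the floor, of each measured gene of the tubulin isotype lists (blue) and related lists (grey), with the number of measured genes in brackets and a bar at the median. The median is 0.54 for alpha and 0.72 for beta isotypes, 1.43 for the proliferation markers and 0.14 for the reference housekeeping genes.

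Proliferation markers were higher as well, with a larger median than the tubulin genes. All 11 measured of 12 were above 0, 9 were at least 2-fold higher, and the median log2 difference was 1.43. The nucleotide synthesis gene RRM2 was 5.28-fold higher, the replicative helicase genes MCM3 and MCM6 were 4.02- and 3.62-fold higher, and MCM2 of the same helicase at least 2.02-fold. The replication clamp gene PCNA was 3.16-fold higher, the mitotic kinase genes CDK1 and AURKA 2.89- and 2.69-fold, and the cyclin genes CCNA2 and CCNB1 2.51- and 2.30-fold. Over all 12 markers, with PLK1 under the floor, the summed intensity was 3550 with analogue 3 and 1278 with DMSO. The part of these markers in the tubulin differences was not tested. Housekeeping genes taken as a reference, 8 of them measured, had a median of 0.14 and lay between -0.40 for B2M and 0.57 for HPRT1.

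By level on the 2 arrays, the genes nearest to TUBB were KPNA2, SNRPE and PRDX1, at distances of 0.22 to 0.29 on the log2 scale. Those nearest to TUBA1B were SNRPG, H2AZ1 and ATP5MC3, at 0.08 to 0.12. With 2 arrays and probe sets of unequal brightness this says only that the values lie close together.

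Across the arrays as a whole, log2 levels over the 5050 measured genes correlated with r = 0.91 across genes, which are not independent replicates. For GAPDH the 3′ signal was 1.18 times the 5′ signal with analogue 3 and 1.21 times with DMSO, but for ACTB it was 10.0 times with analogue 3 and 11.8 times with DMSO. How the high ACTB ratio bears on the tubulin probe sets was not tested. Of the line's epithelial markers, KRT18 was at 457.9 with analogue 3 and 460.8 with DMSO, and KRT8 was 1.84-fold higher at 77.8 with analogue 3 and 42.3 with DMSO, while EPCAM and CDH1 were under the array median on both arrays. The mesenchymal filament gene VIM was at 1868 with analogue 3 and 1883 with DMSO. All leukocyte, fibroblast and endothelial markers on the array were under the floor, the highest being PECAM1 at 15.7 with analogue 3 and 11.35 with DMSO.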

How the data were processed

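The authors deposited 1 linear intensity for each probe set on each array. GCRMA, which corrects background from probe sequence and then normalizes by quantiles, is listed per the submitters' processing notes, and its version is not given in the sources used here. Each column has a median of 1, which points to division by that median, a step no label states. Gene symbols came from the platform annotation held by GEO, and the gene numbers of all 10 members matched RefSeq (GRCh38.p14), the source of the upstream sequences.

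Values were log2-transformed and floored at log2 5, and analogue 3 minus DMSO was taken (Python 3.11.15, pandas 2.3.3). In gene-level values each gene was read from its brightest single-gene probe set by mean log2 level. All member probe sets were named, and of each related list the members past 2-fold or the largest differences, with further genes chosen after their values were seen. The bright tier (mean log2 level of at least 8) was also chosen after seeing the data. The members and lists were chosen with earlier results of these data known. The steps were tested on simulated data. Precision is limited by the number of arrays. Alternatives were floors of log2 3 and 7 and no floor, median centring, loess removal (span 0.3), quantile normalization, omission of _s_at and _x_at probe sets, the median over all probe sets of a gene, and thresholds of 1.5- and 3-fold.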

Additional observations from a re-analysis of the deposited data

Results flagged for a closer look

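The probe set 209372_x_at was left out of the comparison because its annotation names both TUBB2B and TUBB2A. It held signal above the control: 40.81 with analogue 3, over the floor, and 21.56 with DMSO, under it. That is at least 1.28-fold higher, or 1.89-fold between the values as read. It lies above 0 like the TUBB2A probe set and unlike the TUBB2B one, and which gene it reads was not tested.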

How the results depend on the processing

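The number of member probe sets at least 2-fold higher, 2 of 18, depended on small shifts, because both lay within 0.04 of the line on the log2 scale. It was 0 after loess removal and 0 after quantile normalization, 1 of the 3 measured probe sets left without _s_at and _x_at, 10 at a 1.5-fold and 0 at a 3-fold threshold. With no floor it was 3, TUBA4A being added. None was 2-fold lower under any alternative run. The median over member probe sets ran from 0.51 to 0.59, that of the alpha genes from 0.47 to 0.56 and that of the beta genes from 0.59 to 0.85. Some of these ends reflect which genes were counted. The beta value of 0.85 had 5 genes, TUBB2B being under the floor of log2 7, and 0.59 had the 3 genes with _at probe sets. With all 6 beta genes the median ran from 0.63 to 0.73. The alpha value of 0.56 had 4 genes, TUBA4A being added. No alpha gene was measured without _s_at and _x_at probe sets, so the alpha median has no value there. All 65 values of single member genes under the alternatives moved by less than the SD of 1 probe set, 0.17. TUBB2B stayed between -0.21 and -0.20 in the 6 alternatives that measured it. Much of this was fixed in advance. Floor changes could not move these values, because each lay above the floor in use on both arrays. Median centring only subtracted -0.0015, and a gene with 1 probe set has no other value to take a median over. TUBA4A, not measured in the main run, is not among the 65. Of 85 medians of related lists, 8 moved by more than that SD. Among them were the proliferation markers (0.93 with a floor of log2 7) and the modifying enzymes (0.18 with no floor). No paired analysis was possible because each group has 1 array. The scaling in the deposited values is unstated and was not undone, and ratios that rest on values under the floor, such as that of TUBA4A, depend on the floor chosen.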
